A study of Mus musculus with 4 samples.

Results

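De novo lipogenesis makes fatty acids from carbohydrate-derived carbon, and 10 genes of this route were followed in the livers of mice with diet-induced obesity (DIO) that were given GALP (galanin-like peptide, a neuropeptide made in the hypothalamus) through the nose. The genes were Slc25a1, Acly, Acss2, Acaca, Acacb, Fasn, Me1, Scd1, Thrsp and Mlxipl. Every non-control probe that carried one of these gene names was taken, whatever its value, which gave 22 of the 41174 probes and 10 of the 26582 gene names on the array. The probe of Scd1 was flagged and is reported apart, 21 probes had a value on all arrays, and 13 probes of 9 genes were well above background in both channels of all arrays. These 13 are called measured probes.

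All mice were male C57BL/6 (C57BL/6J for the livers) and 8 weeks old at purchase. All of them, controls included, had eaten the high-fat diet for 14 weeks and weighed at least 40 g. By the paper, both groups stayed on this diet, freely available, while GALP or saline was given. The treated mice received 1 nmol of porcine GALP (1-60) in saline with 5% α-cyclodextrin, 2 µL once daily through the nose for 11 days, and the labels name saline for the control mice, so that GALP and this additive cannot be told apart. Liver RNA was pooled from the 4 treated mice that lost more weight (the greater-loss pool), from the 4 treated mice that lost less (the less-loss pool) and from 8 saline mice (the control pool). Each GALP pool was set against the control pool on 2 dual-colour arrays with the dyes exchanged, 4 arrays on 1 slide, so that n = 2 GALP pools and the control is 1 sample whose own spread enters no error.

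In the liver, citrate leaves the mitochondrion through the carrier encoded by Slc25a1 and is split to cytosolic acetyl-CoA by ATP citrate lyase (Acly), while acetyl-CoA synthetase (Acss2) makes acetyl-CoA from acetate. The acetyl-CoA carboxylases (Acaca, Acacb) form malonyl-CoA, fatty acid synthase (Fasn) joins malonyl-CoA units into palmitate with NADPH that malic enzyme (Me1) helps to supply, and stearoyl-CoA desaturase (Scd1) introduces a double bond. Mlxipl encodes ChREBP, the transcription factor that responds to glucose, and Thrsp encodes Spot 14, a small protein linked to lipogenic activity. Insulin acts on the same enzymes through SREBP-1c, the product of Srebf1.

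Values are log2 ratios of GALP over control, where 0 is no difference and a negative value is less signal from the GALP pool than from the control pool. Of the 9 genes with a measured probe, all were below 0 in both pools and 7 were below 0 on each of the 4 arrays, with 1 probe per gene, the one of highest signal. Over all genes with a measured probe, 14.8% were below 0 on all 4 arrays (1581 of 10665). Counted by probe, 10 of the 13 were below 0 on all 4 arrays and 0 above, against 16.0% and 11.8% of all measured probes. The median over the 9 genes was -0.31 for the mean of the pools, against -0.01 over all measured genes. It was -0.36 in the greater-loss pool and -0.42 in the less-loss pool, and over all measured genes it was -0.01 in each pool. With normexp background correction and loess in place of the deposited ratios, the median over the 9 genes was -0.19 for the mean of the pools, -0.21 in the greater-loss pool and -0.20 in the less-loss pool. The means ran from -0.81 for Fasn to -0.09 for Mlxipl, and the central 90% of all measured genes lay between -0.31 and 0.30. In pooled whole liver, fewer cells of a type and less RNA per cell cannot be told apart.

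**Figure D1:**
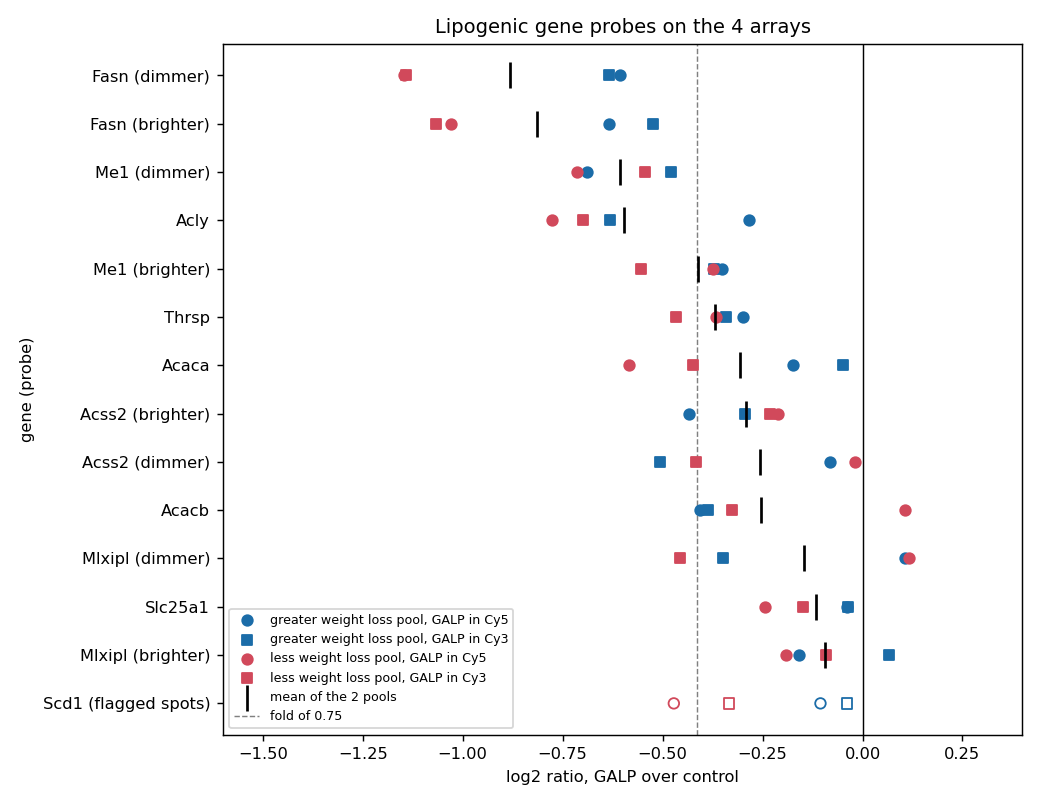
Log2 ratio of GALP over control (horizontal axis) of the 13 measured probes and the flagged Scd1 probe (vertical axis), 1 point per array. Colour gives the pool, shape the dye that carried GALP, the black bar the mean of the pools, and the open points are Scd1, flagged on 3 of 4 arrays. The 4 points of each Fasn probe lie at or below -0.52, while those of the dimmer Mlxipl probe lie on either side of 0 by dye.

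Stretches upstream of 6 of these genes are shown because they are promoter sequence of the genes at both ends of the range, the 4 with the lowest means (Fasn, Acly, Me1, Thrsp) and the 2 nearest to 0 (Slc25a1, Mlxipl), chosen after their values were seen. They are the 250 bases before each transcription start in RefSeq on GRCm38.p6, written 5′ to 3′, on the plus strand for Mlxipl and the minus strand for the others. Me1 and Mlxipl have 2 starts in that table, and both stretches are shown. Capitals mark matches, on either strand, to the E-box CACGTG, the NF-Y box CCAAT, the GC box GGGCGG and the sterol regulatory element core TCACNCCAC.
Fasn, chr11:120824548-120824797: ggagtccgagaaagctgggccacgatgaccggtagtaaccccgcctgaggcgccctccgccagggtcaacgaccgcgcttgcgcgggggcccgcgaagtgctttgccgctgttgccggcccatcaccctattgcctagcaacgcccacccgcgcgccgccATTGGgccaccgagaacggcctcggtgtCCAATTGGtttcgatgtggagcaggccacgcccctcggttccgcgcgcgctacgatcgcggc
Acly, chr11:100528001-100528250: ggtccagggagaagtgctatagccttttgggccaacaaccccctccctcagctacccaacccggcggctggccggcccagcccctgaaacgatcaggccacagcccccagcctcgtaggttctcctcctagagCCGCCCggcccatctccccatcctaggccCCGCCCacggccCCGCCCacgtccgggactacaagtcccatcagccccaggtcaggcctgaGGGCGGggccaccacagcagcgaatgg
Me1, upstream start, chr9:86695915-86696164: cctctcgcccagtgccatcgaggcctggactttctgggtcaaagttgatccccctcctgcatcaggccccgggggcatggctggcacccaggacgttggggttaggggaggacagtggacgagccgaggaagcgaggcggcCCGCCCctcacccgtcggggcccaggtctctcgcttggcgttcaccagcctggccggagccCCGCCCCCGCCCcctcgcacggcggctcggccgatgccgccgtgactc
Me1, downstream start, chr9:86687278-86687527: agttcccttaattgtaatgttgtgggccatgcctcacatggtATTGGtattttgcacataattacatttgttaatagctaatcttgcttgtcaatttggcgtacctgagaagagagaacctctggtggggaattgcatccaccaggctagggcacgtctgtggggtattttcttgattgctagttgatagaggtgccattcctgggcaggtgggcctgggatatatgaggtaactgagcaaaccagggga
Thrsp, chr7:97417551-97417800: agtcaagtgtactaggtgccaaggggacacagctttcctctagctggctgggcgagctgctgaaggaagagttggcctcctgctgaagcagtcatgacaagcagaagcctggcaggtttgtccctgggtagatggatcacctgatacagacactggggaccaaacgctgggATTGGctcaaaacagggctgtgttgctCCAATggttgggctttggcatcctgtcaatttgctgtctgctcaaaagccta
Slc25a1, chr16:17928220-17928469: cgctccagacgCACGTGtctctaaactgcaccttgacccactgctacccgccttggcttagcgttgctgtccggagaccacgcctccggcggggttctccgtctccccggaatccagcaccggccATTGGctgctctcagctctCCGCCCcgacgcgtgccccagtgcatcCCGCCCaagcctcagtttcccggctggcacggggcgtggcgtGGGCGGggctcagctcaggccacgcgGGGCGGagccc
Mlxipl, upstream start, chr5:135089640-135089889: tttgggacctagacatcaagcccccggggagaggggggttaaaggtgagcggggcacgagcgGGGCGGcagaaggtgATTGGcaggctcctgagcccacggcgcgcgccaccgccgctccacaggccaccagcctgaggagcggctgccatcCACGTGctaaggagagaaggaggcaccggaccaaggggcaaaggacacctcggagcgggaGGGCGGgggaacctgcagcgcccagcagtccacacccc
Mlxipl, downstream start, chr5:135106641-135106890: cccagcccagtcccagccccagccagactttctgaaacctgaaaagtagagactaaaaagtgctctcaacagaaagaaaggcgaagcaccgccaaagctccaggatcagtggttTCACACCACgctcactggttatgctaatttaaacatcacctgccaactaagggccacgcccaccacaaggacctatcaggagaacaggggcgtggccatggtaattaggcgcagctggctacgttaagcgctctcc

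The Fasn stretch held 3 matches to the NF-Y box, of which 2 overlap on opposite strands, and none to the GC box. The Acly stretch held 4 GC boxes and no NF-Y box, and the Thrsp stretch 2 NF-Y boxes. Of the Me1 stretches, that of the upstream start held 3 GC boxes and no NF-Y box, and that of the downstream start 1 NF-Y box and no GC box. The Slc25a1 stretch held 1 E-box, 1 NF-Y box and 4 GC boxes. Of the Mlxipl stretches, that of the upstream start held 1 E-box, 1 NF-Y box and 2 GC boxes, and that of the downstream start 1 sterol regulatory element core. The RefSeq table gave 11 such stretches for 9 of the 10 genes, and not for Scd1. Of the 11 stretches, 7 held the NF-Y box, 5 the GC box, 2 the E-box (Mlxipl and Slc25a1) and 1 the sterol regulatory element core (Mlxipl). Of all 32851 stretches of this length, 33.8% held the NF-Y box, 32.7% the GC box, 6.02% the E-box and 1.05% the sterol regulatory element core. A spaced LXR element was searched too and was found in none of the 11 stretches and in 0.0152% of all stretches. These matches describe letters only.

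The carrier and the enzymes that deliver acetyl-CoA differed in their ratios. The Slc25a1 probe (NM_153150, chr16:17925603-17925662, mm9) read -0.04 on each array of the greater-loss pool. It read -0.24 with GALP in Cy5 and -0.15 with GALP in Cy3 in the less-loss pool. The mean was -0.12 ± 0.11 (SD, n = 2 pools), so the carrier stood near control, and its Feature Extraction p-value was above 0.01 on all arrays.

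The Acly probe (NM_134037, chr11:100338517-100338575, mm9) read -0.28 with GALP in Cy5 and -0.63 with GALP in Cy3 in the greater-loss pool. In the less-loss pool it read -0.78 and -0.70. The processed intensity of the control channel was 420, 301, 416 and 403 in this order of arrays, and that of the GALP channel was 345, 194, 243 and 248. On every array the GALP channel was the dimmer one, although the GALP value of 345 on one array exceeded the control value of 301 on another. The mean was -0.60 ± 0.20 (SD, n = 2 pools), or 27.2% below control in the greater-loss pool and 40.0% below in the less-loss pool. The Feature Extraction p-value, which compares the extracts on 1 array, was under 0.01 on 3 of 4 arrays and 0.177 on the fourth. With normexp and loess the mean was -0.21. A further Acly probe (A_52_P373556, chr11:100356793-100356852, mm9) was not well above background in any channel.

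The first of the measured Acss2 probes (NM_019811, chr2:155388126-155388188, mm9) read -0.43 and -0.29 in the greater-loss pool and -0.21 and -0.23 in the less-loss pool, with GALP in Cy5 and then in Cy3. Its mean was -0.29 ± 0.10 (SD, n = 2 pools). The dimmer probe had a mean of -0.26 ± 0.05 (SD, n = 2 pools), yet its arrays split by dye, at -0.08 and -0.02 with GALP in Cy5 and -0.51 and -0.42 with GALP in Cy3. Both probes lay below control on all 4 arrays, and neither had a p-value under 0.01 on any. Of the remaining Acss2 probes, A_52_P337928 (chr2:155344543-155344602, mm9) was not well above background in any channel. Probe A_52_P97564 (chr2:155350664-155350723, mm9) was above it only on 1 array, that of the greater-loss pool with GALP in Cy3, with 107 in the GALP channel and 73.9 in the control channel.

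Of the carboxylases, Acaca encodes the main enzyme of lipogenesis in the cytosol and Acacb the form at the mitochondrion, whose malonyl-CoA restrains fatty acid entry for oxidation. Only 1 of 5 Acaca probes was measured (NM_133360, chr11:84214359-84214418, mm9). It read -0.17 and -0.05 in the greater-loss pool and -0.59 and -0.42 in the less-loss pool, with GALP in Cy5 and then in Cy3. All 4 values were below 0, and the mean was -0.31 ± 0.28 (SD, n = 2 pools), with a p-value under 0.01 on 1 array.

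The 4 other Acaca probes, whose mm9 positions span 12416, 4001, 21895 and 1004 bases and so cross introns, were near background on most arrays. Probe A_51_P439426 read 162 in the GALP channel and 137 in the control channel on the array of the less-loss pool that had GALP in Cy3, and at most 12.0 in any channel of the other arrays. Probe A_52_P132591 did the same, at 104 and 112 on that array and at most 8.68 elsewhere. Probe A_52_P595124 turned with the dye, at -0.60 and -1.01 with GALP in Cy5 and 1.58 and 0.49 with GALP in Cy3. Probe A_52_P23177 was not well above background in any channel and read 0.98, -0.89, 1.28 and 0. These probes give no ratio of the pools.

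The measured Acacb probe (NM_133904, chr5:114700635-114700695, mm9) read -0.41 and -0.39 in the greater-loss pool. In the less-loss pool it read 0.11 with GALP in Cy5 and -0.33 with GALP in Cy3, on opposite sides of 0. The mean was -0.25 ± 0.20 (SD, n = 2 pools) and no array had a p-value under 0.01. The other Acacb probe (A_52_P340167, chr5:114634167-114638374, mm9) was not well above background in any channel.

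Fasn, the enzyme that assembles palmitate, had the lowest ratio of the 9 genes and ranked 65 from the lowest of 10665 measured genes. Its probe of higher signal (NM_007988, chr11:120668460-120668519, mm9) gave a processed intensity of 42389 and 36321 in the control channel of the greater-loss pool, and 46639 and 42672 in that of the less-loss pool. The GALP channel read 27304, 25247, 22851 and 20380 on the same arrays. Here and for the probes below, the arrays repeat 1 control pool and 2 GALP pools. The log2 ratios were -0.63, -0.52, -1.03 and -1.07, with a mean of -0.81 ± 0.33 (SD, n = 2 pools), or 33.1% below control in the greater-loss pool and 51.6% below in the less-loss pool. Its p-value was 0.0123 on the array of the greater-loss pool with GALP in Cy3 and under 0.01 on the others.

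The dimmer Fasn probe (chr11:120667666-120667725, mm9) read -0.61, -0.63, -1.15 and -1.14, with a mean of -0.88 ± 0.37 (SD, n = 2 pools). Its processed intensity was 855 to 1075 in the control channels and 452 to 679 in the GALP channels. The probes thus gave the same order of the pools and differed by at most 0.12 on any array. The rule of the methods asked for a p-value under 0.01 and the same direction on all 4 arrays, and a fold under 0.75 or over 1.5 in both pools. The dimmer Fasn probe fell by this rule, with folds of 0.651 and 0.453, and it was the only one of the 21 probes to do so. The rule called 0.132% of all 41037 probes lower and 0.0585% higher, and no probe of these genes was higher. With normexp and loess it was not called, at -0.49, while the brighter probe stayed at -0.80.

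**Figure D2:**
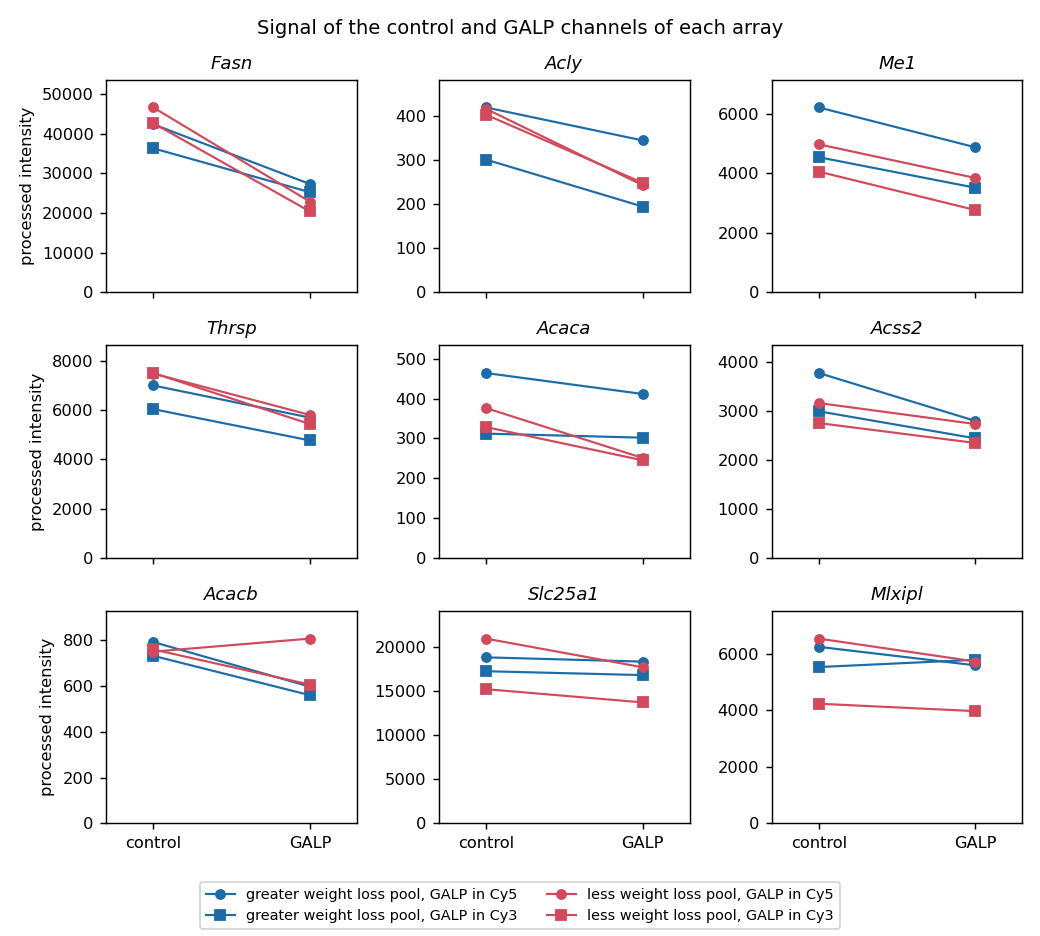
Processed intensity (vertical axis, linear, starting at 0, own scale per gene) of the control and GALP channels (horizontal axis) for the probe of highest signal of 9 genes, 1 line per array, coloured by pool and with the dye of GALP as the shape. All 4 lines go down for Fasn, Acly, Me1, Thrsp, Acaca, Acss2 and Slc25a1, and 1 line goes up for Acacb and for Mlxipl.

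Me1 encodes the cytosolic malic enzyme, a source of NADPH. Its probe of higher signal (M29546, chr9:86480552-86480611, mm9) read -0.35, -0.37, -0.37 and -0.55, with a mean of -0.41 ± 0.07 (SD, n = 2 pools). The other probe (NM_008615, chr9:86475291-86475347, mm9) read -0.69, -0.48, -0.71 and -0.54, with a mean of -0.61 ± 0.03 (SD, n = 2 pools). All 8 values were below 0, and in this gene the pools lay close together, at 33.3% and 35.3% below control for the second probe. The p-value of that probe was 0.0216 on the array of the greater-loss pool with GALP in Cy3 and under 0.01 on the 3 others. The processed intensity of the second probe was 3559 to 4538 in the control channels and 2442 to 2817 in the GALP channels. That of the probe of higher signal was 4055 to 6213 and 2762 to 4872, and these ranges overlap.

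Scd1, the desaturase that makes oleate and palmitoleate, had 1 probe (chr19:44469387-44469446, mm9), whose spot was flagged as non-uniform in both channels on 3 of 4 arrays. The array without a flag, of the greater-loss pool with GALP in Cy5, gave a ratio of -0.11, from 116523 in the control channel and 108329 in the GALP channel. The flagged arrays gave -0.04 in the same pool and -0.47 and -0.33 in the less-loss pool. No array had a p-value under 0.01, and Scd1 entered no count or median except in the alternative processing that kept flagged spots.

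Of the regulators, Thrsp (NM_009381, chr7:104565562-104565621, mm9) read -0.30 and -0.34 in the greater-loss pool and -0.37 and -0.47 in the less-loss pool. The mean was -0.37 ± 0.07 (SD, n = 2 pools). Its processed intensity was 6042 to 7509 in the control channels and 4769 to 5805 in the GALP channels. The Feature Extraction p-value of this probe was above 0.01 on all 4 arrays. The Mlxipl probe of higher signal (NM_021455, chr5:135613505-135613564, mm9) read -0.16, 0.07, -0.19 and -0.09, with a mean of -0.09 ± 0.07 (SD, n = 2 pools). The dimmer Mlxipl probe took its sign from the dye, at 0.11 and 0.12 with GALP in Cy5 and -0.35 and -0.46 with GALP in Cy3. Neither Mlxipl probe was below control on all 4 arrays.

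The test with the pools as replicates was limma on both pool ratios against 0. None of the 21 probes had an adjusted p under 0.05, nor did any of the 41037 probes (0%), and the smallest adjusted p of these genes was 0.374, for the second Me1 probe. With 1 residual degree of freedom, this test gives little information either way. At an unadjusted p under 0.05, 5 probes were lower (both Me1 probes, Thrsp, and the dimmer probes of Acss2 and Mlxipl) and 0 higher, against 6.60% of all probes lower and 4.99% higher. Of these, the dimmer Acss2 and Mlxipl probes split by dye, a spread that the pool ratios leave out. Fasn had the lowest ratio but a wider gap between pools, with an adjusted p of 0.510 and 0.516 for its probes in limma. In a limma fit restricted to the 14444 measured probes, the adjusted p of the 13 probes ran from 0.0637 to 0.437. An exact sign permutation test on 2 pools cannot give a two-sided p below 0.5.

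Set side by side, the pools differed in how far these genes lay below control, and they share the same control pool. Fasn stood at -0.58 in the greater-loss pool and -1.05 in the less-loss pool. Acly stood at -0.46 and -0.74, and Acaca at -0.11 and -0.50. Acss2 and Acacb had the opposite order, at -0.36 and -0.22 and at -0.40 and -0.11. Thus 7 of 9 genes were lower in the less-loss pool, with either dye, where 52.8% of all measured genes were. A fold under 0.75 was reached by 2 genes in the greater-loss pool, where 3.03% of measured genes reached it, and by 5 in the less-loss pool, where 3.27% did, with Thrsp just inside at 0.749. Fasn and Acly were under 0.75 in both pools, as were 1.24% of measured genes, and the second Me1 probe, which does not represent its gene in these counts, had folds of 0.667 and 0.647. With the p-value rule applied to 1 pool alone, 1 probe was lower in the greater-loss pool (dimmer Fasn), against 0.395% of all probes. In the less-loss pool 4 were lower (both Fasn probes, Acly and the second Me1 probe), against 0.366%, and none was higher in either pool alone, against 0.297% and 0.234%. Each pool is 1 sample, so the difference between the pools has no test.

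**Figure D3:**
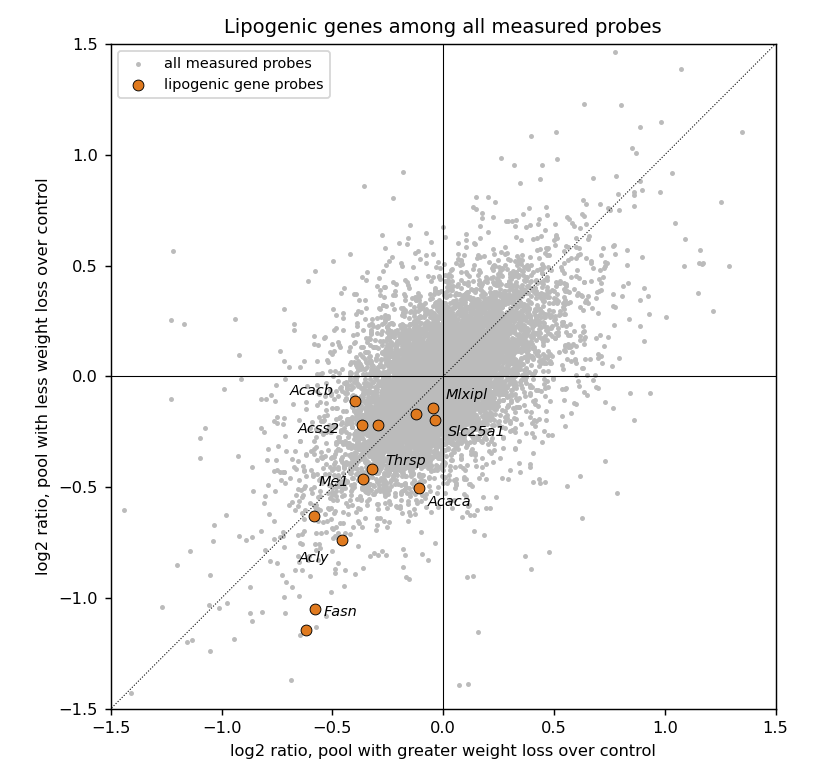
Log2 ratio of the greater-loss pool over control (horizontal axis) against that of the less-loss pool over the same control (vertical axis), for 14444 measured probes (grey) and the 13 probes of lipogenic genes (orange; the label stands at the probe of highest signal, and unlabelled orange points are other probes of Fasn, Me1, Acss2 and Mlxipl). The dotted line marks equal ratios, 64 grey probes lie outside the axes, and all orange points lie below 0 on both axes, with Fasn, Acly and Acaca below the dotted line.

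Genes that supply or regulate the route were described in the same way. A list of 49 genes was represented by 81 probes, and 44 of these genes had a measured probe. By the rule of the methods, 0 of the 81 probes passed in either direction, and the median of the 44 genes was -0.02, with 27 below 0 and 17 above. Of the 44, 8 were below 0 on all arrays and 3 above, or 18.2% and 6.82%. The medians were -0.02 for the 12 genes of acetyl-CoA and citrate supply, -0.03 for the 8 of NADPH supply, -0.06 for the 5 of glucose entry and sensing, -0.02 for the 10 transcriptional regulators and partners, -0.08 for the 7 of malonyl-CoA and carboxylase control, and -0.11 for the 2 of the desaturase family and elongation.

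The gene farthest from 0 in each list was below control. Srebf1, which encodes SREBP-1, stood at -0.25 in the greater-loss pool and -0.51 in the less-loss pool, with a p-value under 0.01 on 1 array. Elovl6, the elongase that extends palmitate to stearate, stood at -0.17 and -0.53. Idh1, the cytosolic isocitrate dehydrogenase that makes NADPH, stood at -0.40 and -0.35. These 3, picked as the farthest of their lists, lay beyond the central 90% of all measured genes in their mean. Counting both sides of that range, they were the only ones of the 44 genes to do so, a share no larger than that of all measured genes. All 3 lay on the lower side, and the share of that side alone was not compared. Cs (citrate synthase, -0.27), Hlcs (the ligase that attaches biotin to carboxylases, -0.27) and Khk (ketohexokinase, -0.19) lay within that range. None of the genes named was called by the rule. Srebf1 and Elovl6 had folds of 0.701 and 0.694 in the less-loss pool, under 0.75, but 0.839 and 0.892 in the greater-loss pool. The lists group genes by function, but they were chosen with earlier results of these data known. The genes named here were picked from them by their values.

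**Figure D4:**
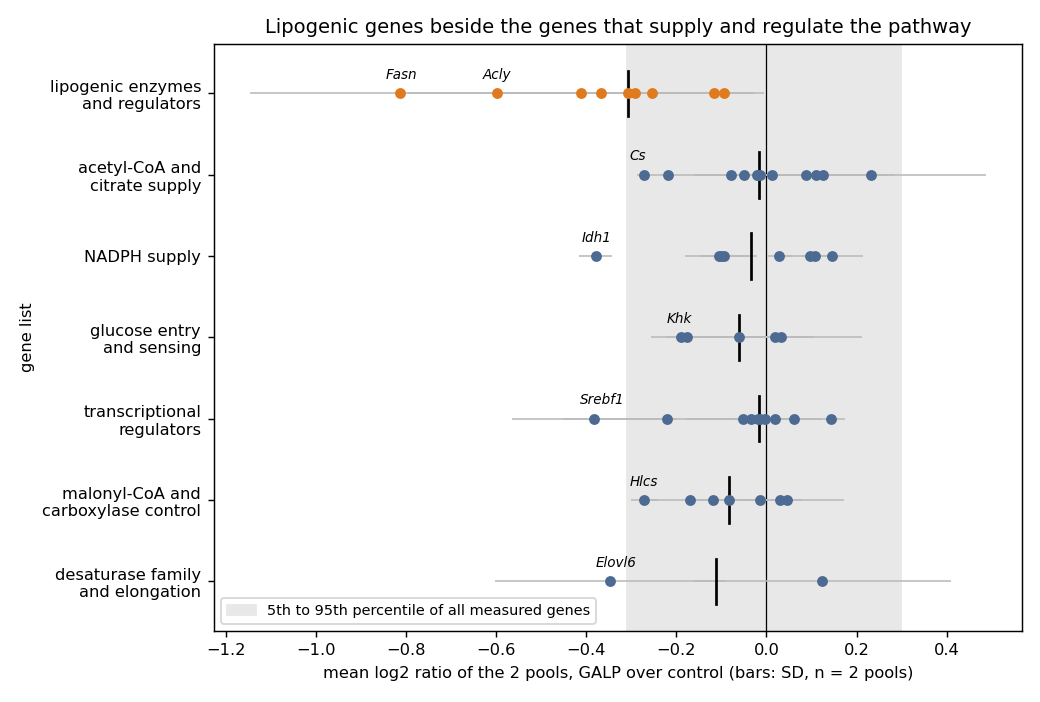
Mean log2 ratio of GALP over control of both pools (horizontal axis, bars are the SD over n = 2 pools) of the measured genes of each list (vertical axis), with the 9 lipogenic genes in orange and a black line at the median of each list. The grey band holds the 5th to the 95th percentile of all 10665 measured genes, and the median of the lipogenic genes, -0.31, lies at its lower edge while those of the other lists lie between -0.11 and -0.02.

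The measured genes whose ratios on the 4 arrays were nearest to those of the brighter Fasn probe, by Euclidean distance, included Spon2, an extracellular matrix protein (distance 0.208), and Ms4a1, a surface protein of B cells (0.240). A further 2 entries carry a transcript identifier in place of a symbol. None of the other lipogenic genes could enter this list.

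Markers of other cell types were read from the same arrays. Of 6 hepatocyte markers, 5 had a value and all 5 were well above background in every channel, with log2 ratios from -0.19 to 0.29 in the greater-loss pool and from -0.56 to 0.11 in the less-loss pool. Adipocytes also express lipogenic enzymes. Of 6 adipocyte markers, 3 were well above background in every channel and Lep and Retn in none, and the summed processed intensity of the list was 4004 to 4688 in control channels and 4765 to 5870 in GALP channels. Most of that sum came from Fabp4, a fatty acid binding protein, which was above control in both pools, at 0.41 and 0.28. Cfd (adipsin) was below control on all 4 arrays, at -0.89 in the greater-loss pool and -0.74 in the less-loss pool, with a p-value under 0.01 on 3 of them. Adipoq (adiponectin) stood at 0.38 and -0.26. The 4 markers of pancreatic acinar cells were well above background in every channel. Their sum was 46871 to 61111 in control channels, 4248 to 6352 in GALP channels of the greater-loss pool and 83538 to 85995 in those of the less-loss pool. Of 3 skeletal muscle markers, 1 was well above background in every channel, and they summed to 661 to 884 in control channels, 895 to 1227 in GALP channels of the greater-loss pool and 135 to 202 in those of the less-loss pool. The acinar markers thus lay below control in the greater-loss pool and above it in the less-loss pool. The part of adipocytes, acinar cells and muscle in the lipogenic ratios, and in the difference between the pools, was not tested.

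Markers of the remaining liver cells were measured as well. All 4 Kupffer cell markers were well above background in every channel, with a summed processed intensity of 18160 to 20719 in control channels and 20350 to 24859 in GALP channels. Marco, a scavenger receptor of macrophages, rose by the rule of the methods. Of the 4, 2 had a mean above 0 (Marco and Cd5l) and 2 below (Clec4f and Vsig4). In the greater-loss and less-loss pools Cd5l stood at 0.13 and 0.16, Clec4f at -0.12 and 0.11, and Vsig4 at -0.25 and 0.12. The 4 endothelial markers summed to 21216 to 29903 in control channels and 20234 to 25654 in GALP channels, and the 4 stellate cell markers to 23781 to 30569 and 20858 to 33302, mostly from Dcn. All 4 stellate cell markers had a mean above 0, with a median of 0.13, as did 4876 of 10665 measured genes. The means were 0.05 for Dcn, 0.07 for Lrat, 0.19 for Reln and 0.66 for Col1a1. Col1a1, a collagen chain, was above control on all 4 arrays, at 0.83 and 0.50, with a p-value under 0.01 on 2 of them. Some spots of its probe were flagged and left out on 3 arrays. Of the 4 bile duct markers, 3 were well above background in every channel and Epcam in none, and they summed to 307 to 393 in control channels and 230 to 329 in GALP channels. Krt19, a keratin of bile duct cells, stood at -0.82 in the greater-loss pool and -0.10 in the less-loss pool. The part of these lists in the lipogenic ratios was not tested.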

How the data were processed

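Liver RNA pools were compared on 4 dual-colour Agilent arrays of 43379 spots, scanned as 1 slide. The authors labelled 500 ng of RNA and used Feature Extraction (version 12.0.3.1 in the headers, 11.0.1.1 in the submitters' processing notes) for background subtraction and LOWESS dye normalization. Used here were the deposited processed intensity of both channels, the deposited log10 ratio (Cy5 over Cy3) and the deposited p-value that the software's error model gives it. The authors' series table repeats these log10 ratios in the direction of GALP over control, with other values only where the software had set a ratio to 0, and served as an alternative.

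Each ratio was taken as log2 of GALP over control. Outlier-flagged spots were left out, replicate spots averaged (p-values by their median), and then the 2 arrays of a pool, which carry the same extracts. The control, to whose channel the labels also give a weight loss group, was treated as 1 pool, as the paper describes it. No label gives the separate mice behind a pool, so the p-values of the replicate test in limma measure the spread between pools only. The Feature Extraction p-values come from the error model of 1 array and measure no spread between pools. The rule of the methods was read as requiring all 4 arrays. The replicate test was limma 3.58.1 in R 4.3.3 (lmFit, eBayes) on both pool ratios with Benjamini-Hochberg adjustment over 41037 probes. A probe is measured if it is well above background in both channels of all arrays (14444 probes). A gene is represented by its probe of highest signal. From 40.5% to 46.7% of probes were well above background per channel, 0 were saturated, and precision is limited by the number of arrays.

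The genes and lists were chosen with earlier results of these data known. All probes of the 10 genes are described, then the genes of each pathway list with a called probe or else that with the largest absolute mean ratio, and the 5 genes nearest to Fasn, of which not all are reported here. Alternatives were normexp (offset 50) with loess, centring, the series table, flagged spots kept, each dye orientation or pool alone, other p rules, a filter on dim probes, the mean of all measured probes of a gene, and for limma an intensity trend and the pool as a random block. Procedures were tested on simulated data with planted changes larger than the mean change of any of these genes, so changes of the size seen here were not covered. Probe positions are on mm9 per the file headers, and their exons were not looked up. Upstream sequences are from RefSeq (GRCm38.p6). Python 3.11.15, numpy 2.4.6, pandas 2.3.3 and matplotlib 3.10.9 were used.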

Additional observations from a re-analysis of the deposited data

How the results depend on the processing

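No median changed sign under the alternatives. All 13 measured probes had a mean below 0 under each of them except with GALP in Cy5 only, where 12 did and the dimmer Mlxipl probe stood at 0.11. With normexp and loess the means of Acly, Acss2, Acacb and Acaca moved closer to 0, to -0.21, -0.19, -0.14 and -0.11.

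The count of probes called lower in both pools, 1 in the fit reported, was 2 with GALP in Cy3 only, 3 with GALP in Cy5 only, 4 without a p-value, 4 with a p-value under 0.01 on at least 1 array of each pool, and 0 with normexp and loess. It ran from 1 to 4 when one pool was left out, 1 without the less-loss pool and 4 without the greater-loss pool. No probe was called higher under any alternative. The median of the genes, -0.31, was -0.36 with GALP in Cy3 only and -0.19 with normexp and loess, and it ran from -0.42 to -0.36 when one pool was left out. In the greater-loss pool the median, -0.36, was -0.30 with GALP in Cy5 only, -0.33 with the mean of all measured probes of a gene and -0.21 with normexp and loess. In the less-loss pool the median, -0.42, was -0.37 with GALP in Cy5 only and -0.20 with normexp and loess. The count of probes with a limma adjusted p under 0.05, 0 in the fit reported, was 1 with normexp and loess (the second Me1 probe, 0.0321). Over all 41037 probes limma called 0 in the fit reported, 66 lower and 52 higher with normexp and loess, and 67 lower and 39 higher with the pool as a random block of the 4 arrays, whose adjusted p for the second Me1 probe was 0.0552. In that block fit the consensus correlation of the arrays of a pool was -0.389. Its error also holds the spread of dye-swapped arrays of the same extracts, which are not replicates. The cause of the differing counts was not tested.

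Over the alternatives the brighter Fasn probe ran from -1.05 to -0.58 and the dimmer one from -1.14 to -0.49. Signals near background gave no ratio for 8 probes of Acaca, Acss2, Acacb and Acly. No paired analysis was possible because the labels give no replicate numbers and the arrays of a pool are dye swaps of the same extracts.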
